A study of Mus musculus with 15 samples.

Results

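Type I interferon-stimulated genes, the genes that cells switch on when interferon-alpha or interferon-beta binds its receptor, were followed across sorted blood progenitors of mice with Tet2 loss, mutant Nras or both. The set is a list of 38 gene symbols that leaves out the Gbp and Ifi200 families. All 38 were found among the 44827 genes of the deposited table. All 38 also passed the filter on low values (at least 1 CPM, a count scaled to library size, in at least 3 libraries), as did 13927 genes of the whole table.

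RNA was sequenced from LSK cells, a bone marrow fraction without lineage markers and with Sca1 and cKit on its surface, which holds stem cells and early progenitors. All mice were C57BL/6, and marrow came from femurs, tibiae and iliac crests. There were 5 groups of 3 libraries, 15 in all. The groups were WT, Tet2-/- (loss of a dioxygenase that oxidises methylated cytosine), Nras(G12D) (a RAS protein locked in its active state), Tet2-/- Nras(G12D) without leukemia, called the double mutant here, and Tet2-/- Nras(G12D) with leukemia, the leukemic double mutant. The series' design text describes the mutants as conditional and specific to hematopoietic tissue, and gives an age of 6 months. The labels do not name the Cre driver, and WT is given no further allele. BMT stands in the descriptions of the leukemic libraries alone. Its meaning was not established here, and leukemia and BMT cannot be told apart. No label ties the 3 libraries of a group to different animals. The p-values measure the spread between libraries, part of which may be technical.

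As background, interferon-alpha and interferon-beta bind the receptor pair IFNAR1 and IFNAR2. The kinases JAK1 and TYK2 then activate transcription factors, among them STAT2, which acts with IRF9 in the complex ISGF3 and binds interferon-stimulated response elements in promoters. The induced genes encode sensors of viral nucleic acid, antiviral effectors, and proteins that amplify or end the signal. In blood stem cells interferon is known to drive cells out of quiescence, and it raises Sca1, the product of Ly6a, which is one of the markers used in the sort.

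Promoters of 5 members are shown because they hold the core letters of the interferon-stimulated response element, and because they span members that did and did not pass the test between the double mutant and Tet2-/-. The motif, GAAA followed by any 2 bases and GAAA, was searched on both strands, overlapping matches included, from 250 bases before to 50 bases after each start site in RefSeq (GRCm38.p6). It was in 12 of the 27 members with a window there (44.4%) and in 1079 of 27025 genes of the table (3.99%). The other 11 members had no window in it. Oas1a (chr5:120907526-120907585, minus strand), Trim30a (chr7:104465194-104465253, minus) and Rsad2 (chr12:26456533-26456592, minus) passed that test. Isg15 (chr4:156200857-156200916, minus) and Ifit1 (chr19:34640765-34640824, plus) did not. Each line gives 60 bases 5′ to 3′ on the gene's strand with the motif in capitals, written TTTC, 2 bases and TTTC where it lies on the opposite strand.
Oas1a: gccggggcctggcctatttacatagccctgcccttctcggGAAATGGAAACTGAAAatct
Trim30a: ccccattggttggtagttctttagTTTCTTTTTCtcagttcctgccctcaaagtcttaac
Rsad2: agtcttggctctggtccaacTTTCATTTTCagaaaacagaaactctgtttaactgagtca
Isg15: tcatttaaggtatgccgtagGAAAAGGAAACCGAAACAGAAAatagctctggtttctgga
Ifit1: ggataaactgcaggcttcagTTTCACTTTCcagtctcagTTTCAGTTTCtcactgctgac
The other members with the motif were Ifit3, Oas3, Stat2, Ifih1, Ddx58, Bst2 and Eif2ak2. Among members with a window, 5 of the 12 that passed the test between the double mutant and Tet2-/- held it, and 7 of the 15 that did not. A match describes letters in a window and is not evidence of binding.

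Total counts per library ran from 22733189 to 43562909, and a count of 0 allows a level of up to 3 counts, or 0.0775 to 0.127 CPM, for counting error only. Kit, which encodes cKit, was at 1130 to 1421 CPM in WT, and Ly6a at 73.6 to 103. The Y-linked gene Ddx3y was at or above 1 CPM in Tet2-/- 1 and 2, Nras(G12D) 2, double mutant 1 and leukemic 1, so the WT group holds 1 sex and each mutant group holds both, and thus more than 1 animal. In bulk samples, fewer cells with a transcript and less of it per cell cannot be told apart.

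Most members were highest in Tet2-/- and lowest in the double mutant or the leukemic double mutant. Tet2-/- had the highest group mean for 27 of the 38 members, the leukemic double mutant for 5, Nras(G12D) for 3, WT for 2 and the double mutant for 1. The lowest mean was in the double mutant for 18 members and in the leukemic double mutant for 16. Relative to the WT mean of each gene, the median member stood at a log2 of 0.40, 0.16 and 0.95 in Tet2-/- libraries 1 to 3, and at -0.49, -0.04 and 0.08 in Nras(G12D). For the double mutant it stood at -0.09, -0.19 and -0.48, and for the leukemic libraries at -0.63, -0.39 and 0.23. By this median each Tet2-/- library stood above every Nras(G12D) and double mutant library, while the leukemic libraries spanned most of the range.

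**Figure D1:**
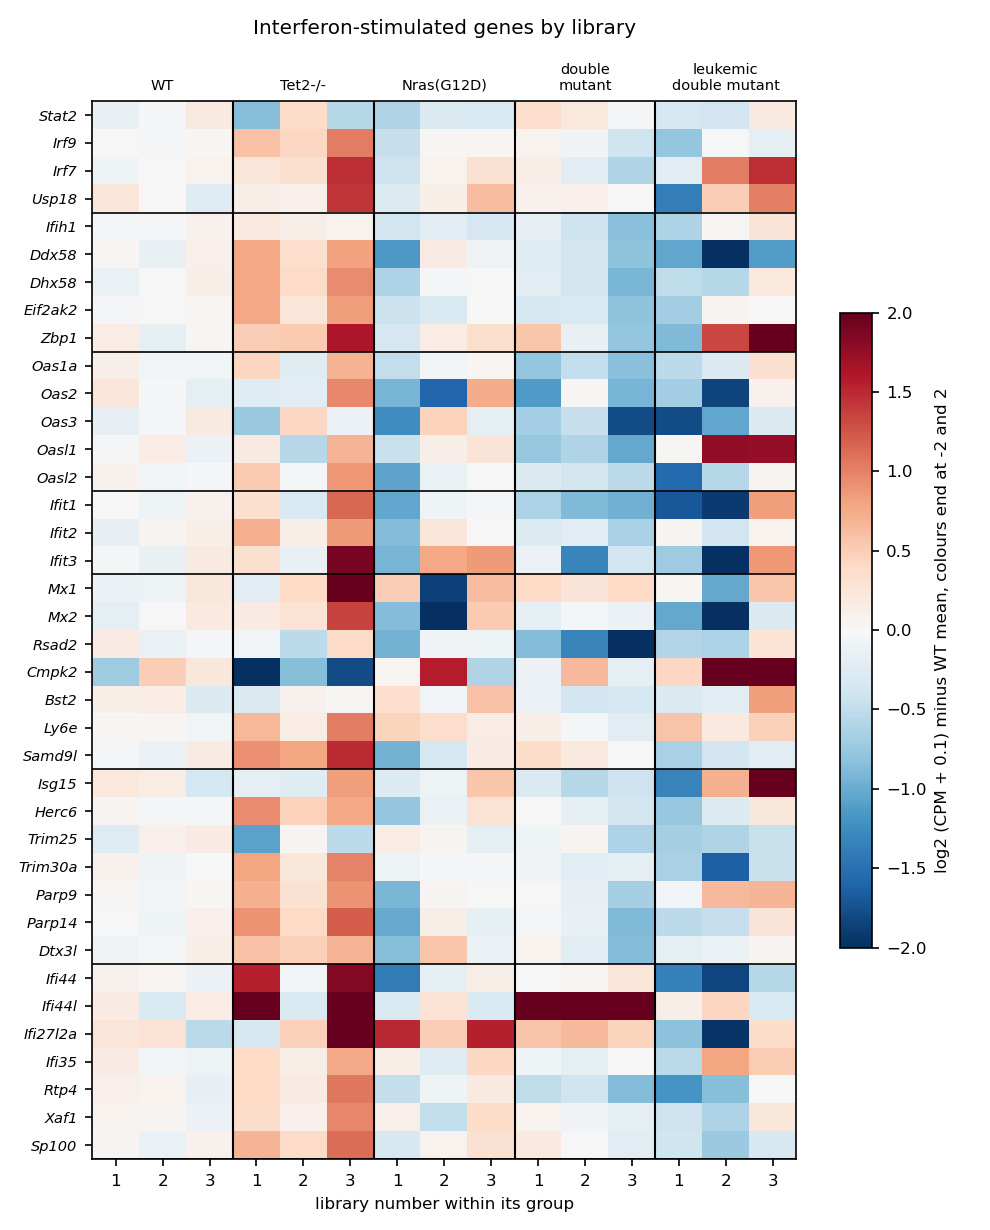
Each row is 1 of the 38 members and each column 1 of the 15 libraries. Colour gives log2 (CPM + 0.1) minus the mean of the 3 WT libraries, with colours ending at -2 and 2, and lines separate groups and roles. The third Tet2-/- library is the reddest, and Cmpk2 runs against the other members in Tet2-/-.

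A few libraries set much of this order. Tet2-/- 3 held the highest value of all 15 libraries for 25 members and the highest of its group for 30. Double mutant 3 was the lowest of its group for 28 members, Nras(G12D) 1 for 27 and Tet2-/- 2 for 26, and leukemic 3 was the highest of its group for 31. Within WT the members varied little, with a median SD of 0.14 on the log2 scale against 0.20 over all tested genes. Their median SD was 0.46 in Tet2-/- (all genes 0.35), 0.47 in Nras(G12D) (0.49), 0.23 in the double mutant (0.24) and 0.62 in the leukemic double mutant (0.44).

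Levels per kb were taken over the merged annotated exons of a gene, which can be longer than any single transcript. By this measure the most abundant members in WT were Ly6e at 310 CPM per kb, Bst2 at 97.9, Rtp4 at 34.7, Dtx3l at 31.5 and Irf9 at 29.8. At the other end stood Ifit3 at 2, Mx1 at 1.92, Mx2 at 1.89 and Ifi44l at 0.0181 CPM per kb. Ifit3, Mx1 and Mx2 were thus among the weakest members in WT.

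The clearest change was between the double mutant and Tet2-/-, the comparison that adds mutant Nras to Tet2 loss. In the double mutant 16 members fell and 1, Cmpk2, rose (limma, Benjamini-Hochberg adjusted p below 0.05 over all tested genes). Over all 13927 genes 28.7% were called, 20.1% higher and 8.57% lower. The median member differed by a log2 of -0.85 and the median gene by 0.00, and 4 members lay above 0 (50.1% of all genes). All double mutant libraries lay below all Tet2-/- libraries for 25 members (27.5% of all genes) and above them for 1 (26%). The other 3 members above 0 were Stat2, Trim25 and Ifi44l. All 10 of 10 listed handling and immediate early genes rose between the same groups, to a summed level of 1811 to 4352 CPM from 135 to 306, and their part in the members' result was not tested. That sum was 126 to 320 CPM in WT and 369 to 1706 in the leukemic double mutant.

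**Figure D2:**
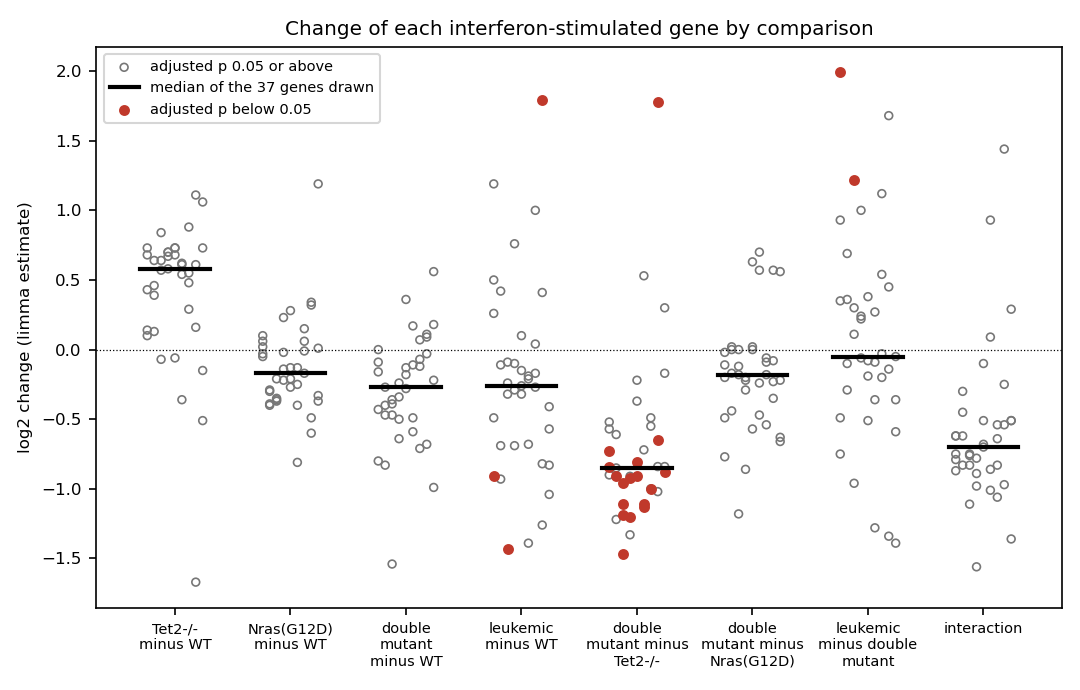
Points are log2 changes (limma estimates) of 37 members in 8 comparisons, with Ifi44l left out because its range exceeds the axis. Filled red points have an adjusted p below 0.05 and bars mark the median. In the double mutant against Tet2-/- 16 of them are red below 0 and Cmpk2 is red above 0.

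The number of calls in this comparison depended on single libraries, as did the share of all genes called. Leaving out Tet2-/- 1, 2 and 3 in turn, 2, 21 and 2 members were called, beside 9.03%, 37.6% and 11.5% of all genes. Leaving out double mutants 1, 2 and 3 in turn, 15, 6 and 1 members were called, beside 25%, 11.9% and 10.3% of all genes. The median kept its sign, from -1.04 to -0.64. Eif2ak2 was called in each of these fits, and Dhx58 in each but that without double mutant 3. Without double mutant 2 the calls were Eif2ak2, Dhx58, Rsad2, Rtp4, Oas1a and Parp14, and without double mutant 1 all but Cmpk2 and Trim30a. Ranges given below for single genes are the lowest and highest log2 change over all alternatives, including these fits. With no filter on low genes only 4 members stayed called, Dhx58, Eif2ak2, Rsad2 and Rtp4 (4.97% of all genes).

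Among the signal transducers and feedback genes, Irf9 fell and Stat2, Irf7 and Usp18 did not pass the test. For Irf9, the DNA-binding subunit of ISGF3, WT had 160, 157 and 165 CPM and Tet2-/- had 241, 215 and 328. Nras(G12D) had 117, 164 and 165 CPM, the double mutant had 169, 153 and 122 and the leukemic double mutant had 94.1, 159 and 142. Tet2-/- was above every other library. The double mutant differed from Tet2-/- by a log2 of -0.81 ± 0.24 (limma estimate ± SE, adjusted p = 0.0237, range -1.26 to -0.64). Stat2, its partner in ISGF3, did not follow. For Stat2, WT had 77.6, 84.2 and 96.9 CPM, Tet2-/- had 47.4, 111 and 57.6 and the double mutant had 109, 99.8 and 83.5. The groups overlapped (0.53 ± 0.28, limma adjusted p = 0.166). Irf7, which drives transcription of the interferon-alpha genes, lay above WT in every Tet2-/- library and was far higher in Tet2-/- 3 and leukemic 2 and 3. WT had 50.8 to 56.3 CPM, Tet2-/- had 63.7, 66.8 and 149, the double mutant had 58.9, 45.7 and 35.3 and the leukemic double mutant had 46.4, 109 and 149. The double mutant lay below Tet2-/- for Irf7 without overlap (-0.91 ± 0.41, limma adjusted p = 0.102). Usp18, which strips ISG15 from proteins and dampens the receptor, was at 37.3, 36.8 and 93 CPM in Tet2-/- against 28.8 to 40.8 in WT. Of the 3 Tet2-/- libraries only Tet2-/- 3 lay above the WT range for Usp18, as did Nras(G12D) 3 at 52.6 CPM and leukemic 2 and 3 at 48.6 and 69.2.

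Of the 5 sensors of viral nucleic acid, Ddx58, Dhx58 and Eif2ak2 fell and Ifih1 and Zbp1 did not pass. For Dhx58, which encodes LGP2, a regulator of the RNA sensors RIG-I and MDA5, WT had 39.7, 43.6 and 47.3 CPM, Tet2-/- had 74, 56.5 and 83.3 and Nras(G12D) had 28.2, 42.3 and 43.8. The double mutant had 37.4, 33.7 and 22.9 CPM and the leukemic double mutant had 30.5, 29.2 and 50.5. Every Tet2-/- library was above every other library for Dhx58 (chromosome 11, 100694884 to 100704271, minus strand), and the double mutant was below WT without overlap. Dhx58 differed between the double mutant and Tet2-/- by -1.20 ± 0.28 (limma, adjusted p = 0.00886). Eif2ak2 (GRCm38 chromosome 17, 78852564 to 78882573, minus strand) encodes PKR, a kinase that halts translation on double-stranded RNA. For Eif2ak2, WT had 84.6, 87.8 and 89.3 CPM, Tet2-/- had 149, 103 and 156, Nras(G12D) had 64.5, 70.6 and 86.3, the double mutant had 68.3, 70.6 and 49.8 and the leukemic double mutant had 53.7, 90.4 and 87.4. It fell from Tet2-/- to the double mutant by 1.11 on the log2 scale (SE 0.25, limma adjusted p = 0.00747). For Ddx58, which encodes RIG-I, WT had 138, 121 and 144 CPM, Tet2-/- had 228, 171 and 234, the double mutant had 113, 104 and 76.6 and the leukemic double mutant had 65.4, 30.4 and 61.6. These 4 groups did not overlap for Ddx58 (chromosome 4, 40203773 to 40239828, minus strand), with Tet2-/- on top and the leukemic double mutant at the bottom. Ddx58 was lower in the double mutant than in Tet2-/- by -1.11 ± 0.34 (limma, adjusted p = 0.0284, range -1.39 to -0.95). Nras(G12D) had 60.6, 150 and 128 CPM of Ddx58. For Ifih1, which encodes MDA5, Tet2-/- had 49.5, 47 and 45.4 CPM and the double mutant had 38.5, 32.3 and 24.2 (-0.61 ± 0.24, limma adjusted p = 0.073). The groups did not overlap, but the difference missed the threshold.

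The oligoadenylate synthetases make short oligoadenylates that activate RNase L, and IFIT proteins bind viral RNA and block its translation. Oas1a, of the 5 synthetase-family genes, and Ifit2, of the 3 Ifit genes, fell in the double mutant against Tet2-/- (8.57% of all genes fell). For Oas1a, WT had 49, 43.5 and 43.9 CPM, Tet2-/- had 61.2, 38.3 and 73.4, Nras(G12D) had 32.1, 43.9 and 46.5, the double mutant had 26.1, 32.3 and 25.3 and the leukemic double mutant had 31.5, 37.1 and 56.8. The double mutant was below every WT and Tet2-/- library (against Tet2-/- -1.0 ± 0.28, limma adjusted p = 0.0191, range -1.36 to -0.80). For Ifit2, Tet2-/- had 103, 68.2 and 113 CPM and the double mutant had 51.4, 53.6 and 39.6, a difference of -0.96 ± 0.29 (limma adjusted p = 0.0263, range -1.30 to -0.81). In the other groups Ifit2 was 55.8, 64.8 and 67.4 CPM for WT, 34.3, 73.6 and 62.4 for Nras(G12D) and 65, 47.8 and 65.7 for the leukemic double mutant, so Tet2-/- 1 and 3 were the 2 highest of all libraries. Ifit1 and Ifit3 had larger differences and did not pass. For Ifit1, Tet2-/- had 35.3, 22.8 and 62.9 CPM and the double mutant had 18.2, 15.2 and 14.5 (-1.22 ± 0.58, limma adjusted p = 0.121). Ifit3 was at 4.38, 3.11 and 13.2 CPM against 3.18, 1.33 and 2.63 (-1.33 ± 0.73, limma adjusted p = 0.177). For both genes Tet2-/- 3 stood far above Tet2-/- 1 and 2. The other synthetase genes had differences of -0.84 ± 0.59 (Oas2), -0.84 ± 0.48 (Oas3), -0.90 ± 0.43 (Oasl1) and -0.85 ± 0.37 (Oasl2), with no overlap for Oasl1 and Oasl2, and none of these passed (limma adjusted p from 0.09 to 0.283).

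Restriction factors act on single steps of viral growth. In the double mutant against Tet2-/- Rsad2, Ly6e and Samd9l fell, Cmpk2 rose, and Mx1, Mx2 and Bst2 did not pass. For Samd9l, an antiviral factor that restricts poxviruses, WT had 114, 107 and 130 CPM, Tet2-/- had 219, 201 and 328, Nras(G12D) had 60.5, 91.6 and 131, the double mutant had 150, 133 and 116 and the leukemic double mutant had 74.4, 89.7 and 101. Tet2-/- lay above all other libraries for Samd9l. The double mutant differed from Tet2-/- by -0.88 ± 0.27 (limma, adjusted p = 0.0283, range -1.40 to -0.67). For Ly6e, which encodes a membrane-anchored protein that affects virus entry, Tet2-/- had 1866, 1306 and 2380 CPM and the double mutant had 1289, 1147 and 1015. Ly6e libraries of WT had 1191, 1201 and 1130 CPM, of Nras(G12D) 1600, 1501 and 1303, and of the leukemic double mutant 1737, 1345 and 1626. All mutant groups but the double mutant lay above WT for Ly6e. Its fall between the double mutant and Tet2-/- was small (-0.65 ± 0.20, limma adjusted p = 0.0279, range -1.14 to -0.45). The call was also lost after quantile normalization and with the compared groups alone. Mx1 and Mx2, genes of the Mx GTPase family, and Bst2, which encodes tetherin, had differences of -0.37 ± 0.65, -0.72 ± 0.64 and -0.22 ± 0.29. Mx2 alone of the 3 did not overlap.

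Rsad2 and Cmpk2 are neighbours on chromosome 12 of GRCm38, 12752 bases apart and transcribed away from each other. In the double mutant against Tet2-/- they moved in opposite directions. From the double mutant to the leukemic double mutant the estimates for both were positive, 1.22 for Rsad2 and 1.68 for Cmpk2, which did not pass there. Rsad2 (26442746 to 26456452, minus strand) encodes viperin, which makes a chain-terminating nucleotide from CTP, and Cmpk2 (26469204 to 26479837, plus strand) encodes a mitochondrial nucleotide kinase. For Rsad2, WT had 44.7, 36.2 and 39.2 CPM, Tet2-/- had 38.2, 27.6 and 52, Nras(G12D) had 20.7, 37.9 and 37.6, the double mutant had 21.9, 15.8 and 7.37 and the leukemic double mutant had 26.5, 25.6 and 48.1. All 3 double mutant libraries lay below every WT, Tet2-/- and leukemic library for Rsad2. Rsad2 fell from Tet2-/- to the double mutant by 1.47 on the log2 scale (SE 0.40, limma adjusted p = 0.0167, range -2.26 to -1.03). For Cmpk2, WT had 17.1, 39.6 and 33.1 CPM, Tet2-/- had 5.52, 15.5 and 8.07, Nras(G12D) had 29, 83.6 and 18.6, the double mutant had 25.9, 44.1 and 24.6 and the leukemic double mutant had 37.7, 153 and 160. Tet2-/- was below every other library for Cmpk2. Cmpk2 rose from Tet2-/- to the double mutant by 1.78 ± 0.62 (limma, adjusted p = 0.0451, range 1.32 to 2.25). The call was also lost after quantile normalization, with a term for Ddx3y and with no filter.

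**Figure D3:**
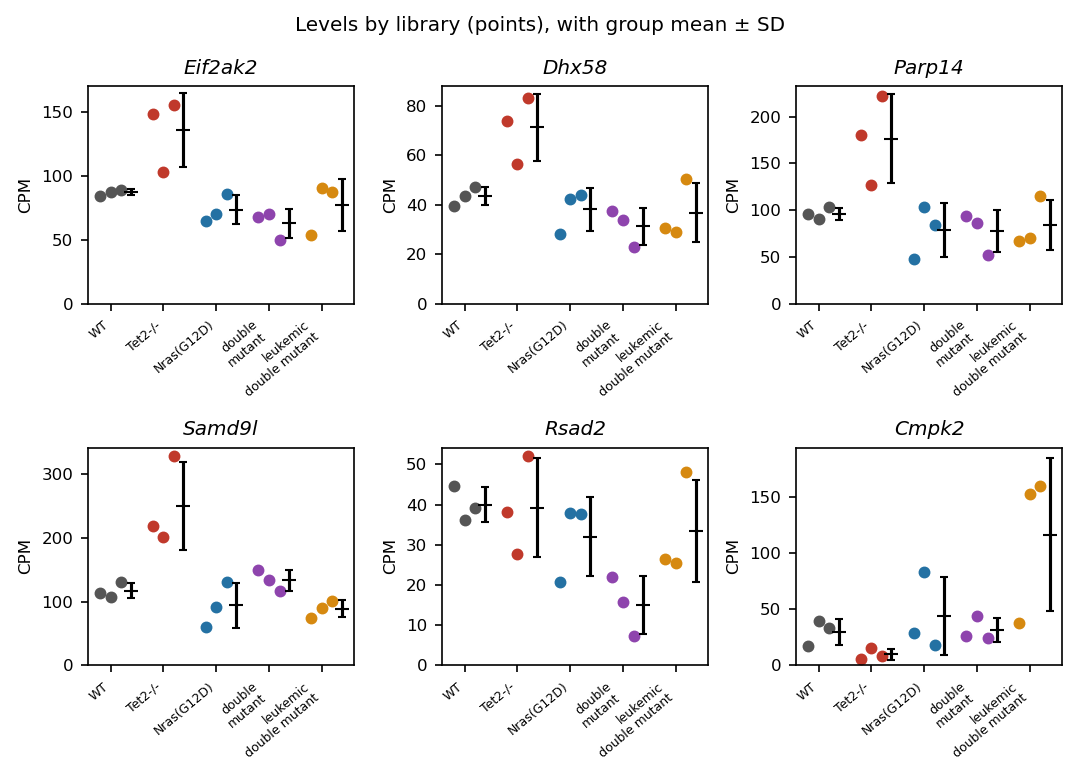
CPM of 6 members by library (points) with the mean ± SD of each group of 3 libraries. Eif2ak2, Dhx58, Parp14 and Samd9l are highest in Tet2-/-, Rsad2 is lowest in the double mutant, and Cmpk2 is lowest in Tet2-/- and reaches 153 and 160 CPM in 2 leukemic libraries.

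Of the 7 genes for ISG15 and for transfer of ubiquitin or ADP-ribose, 5 fell in the double mutant against Tet2-/-: Trim30a, Parp9, Parp14, Dtx3l and Herc6. For Parp14, an ADP-ribosyltransferase, WT had 95.8, 90.3 and 103 CPM, Tet2-/- had 180, 127 and 222, Nras(G12D) had 47.8, 104 and 84.5, the double mutant had 94.3, 86.9 and 52 and the leukemic double mutant had 66.8, 70.2 and 115. Parp14 was higher in each Tet2-/- library than in any other (against the double mutant, -1.19 ± 0.33, limma adjusted p = 0.0181, range -1.73 to -0.92). For Herc6, the main ISG15 ligase of mice, Tet2-/- had 94.8, 67.5 and 84.2 CPM and the double mutant had 49.5, 42.8 and 38.2 (-0.91 ± 0.29, limma adjusted p = 0.0329). Herc6 libraries of WT had 51, 48.2 and 48.2 CPM, of Nras(G12D) 28.6, 44.7 and 60.1, and of the leukemic double mutant 29.1, 40.8 and 57.7. All were below the Tet2-/- range. Trim30a was at 193, 131 and 223 CPM against 106, 96.1 and 97.2 (-0.84 ± 0.28, limma adjusted p = 0.0364). Neither gene overlapped between these groups, and Nras(G12D) had 104, 108 and 110 CPM of Trim30a. Parp9 and Dtx3l encode partners in 1 complex, and their genes overlap on opposite strands of chromosome 16, with 5′ ends 681 bases apart. Parp9 differed by -0.91 ± 0.30 and Dtx3l by -0.92 ± 0.30 (limma, adjusted p = 0.035 and 0.0367). For Parp9, WT had 123, 116 and 124 CPM, Tet2-/- had 197, 149 and 226, Nras(G12D) had 63.8, 125 and 122, the double mutant had 122, 108 and 75.9 and the leukemic double mutant had 116, 189 and 193. For Dtx3l, WT had 171, 174 and 195 CPM, Tet2-/- had 269, 250 and 289, Nras(G12D) had 99.2, 265 and 165, the double mutant had 189, 154 and 98.4 and the leukemic double mutant had 157, 163 and 186. Leukemic 2 and 3 reached the Tet2-/- range for Parp9 and not for Dtx3l. The use of strand in counting is not known, and the reads of this pair may not be fully separate. The call of Trim30a was also lost by scaling to total counts (range -1.21 to -0.68) and that of Dtx3l with a term for Ddx3y (range -1.23 to -0.65). Isg15 itself was at 13.8, 13.3 and 28.1 CPM in Tet2-/- and 12.9, 10.6 and 11.7 in the double mutant (-0.57 ± 0.62, limma adjusted p = 0.499), so the ubiquitin-like modifier did not pass where 1 of its ligases did. Trim25, a ubiquitin ligase of the RIG-I pathway, was at 59.1, 128 and 86.3 CPM against 116, 129 and 80.4.

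Among the 7 remaining members Rtp4 and Sp100 fell. For Rtp4, Tet2-/- had 97.5, 82.7 and 153 CPM and the double mutant had 51.7, 55.9 and 40.3 (-1.13 ± 0.31, limma adjusted p = 0.0175, range -1.69 to -0.88). Rtp4, a chaperone of membrane receptors, was 78.8, 77.5 and 65.5 CPM for WT, 52.9, 69.4 and 83.9 for Nras(G12D) and 32.3, 40.8 and 73 for the leukemic double mutant. Leukemic 1 and 2 were thus as low as the double mutant. Sp100, a component of nuclear bodies, was at 310, 254 and 423 CPM against 223, 194 and 168 (-0.73 ± 0.23, limma adjusted p = 0.0289, range -1.23 to -0.54), and its call was also lost after quantile normalization. For Sp100, WT had 201, 177 and 206 CPM, Nras(G12D) had 155, 204 and 240 and the leukemic double mutant had 147, 116 and 155. Neither gene overlapped between the double mutant and Tet2-/-. Xaf1, Ifi35 and Ifi27l2a had log2 differences of -0.55 ± 0.29, -0.52 ± 0.31 and -0.17 ± 0.60 and did not pass.

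Ifi44l had a pattern of its own, either plainly present or at almost nothing. It was at 73.6, 0 and 62.6 CPM in Tet2-/- 1 to 3 and at 22.3, 21.6 and 38.2 in the double mutant. In WT it had 1, 0 and 1 counts, in Nras(G12D) 0, 2 and 0, and in the leukemic double mutant 1, 2 and 0. Thus 5 of the 9 libraries without functional Tet2 by label had it and 4 did not, while all 6 libraries with Tet2 lacked it. Pooled over libraries, its CPM in the double mutant was 826 times that in the leukemic double mutant (exact 95% interval 282 to 4006, counting error only). The fitted fall was 9.35 on the log2 scale (SE 2.26, limma adjusted p = 0.0114), a size that depends on the added count. Ifi44l passed the filter on low values only through Tet2-/- 1 and 3 and the double mutant. Its test is thus not independent of the libraries that admitted it. The call held in each alternative run, including that with no filter. Against WT the same double mutant libraries gave an adjusted p = 0.0744 (limma) although the groups did not overlap. The fit shares 1 spread over all groups, and Tet2-/- 2 is part of it.

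Its neighbour Ifi44 was highest in the same 2 Tet2-/- libraries. For Ifi44, WT had 70.4, 68 and 60.8 CPM, Tet2-/- had 194, 63.6 and 237, Nras(G12D) had 25.1, 58.8 and 71.8, the double mutant had 65.8, 67.9 and 78.2 and the leukemic double mutant had 25.8, 18.5 and 44.6. For Ifi44, Tet2-/- 2 lay inside the WT range, and the double mutant, which had Ifi44l, overlapped WT. Ifi44 (151730922 to 151749960, minus strand) and Ifi44l (151758737 to 151762892, minus strand) lie 8777 bases apart on chromosome 3 of GRCm38, 18.3 Mb from Tet2 on the same chromosome (133463679 to 133545139). Gbp2b, an interferon-inducible GTPase gene that is no member, lies 9.13 Mb from Tet2. It was chosen after its values were seen, so it is no neutral comparison, and most genes of the region are not shown. For Gbp2b, Tet2-/- had 88, 28.6 and 76.4 CPM and the double mutant had 28, 18.5 and 35.1, against at most 0.183 in WT, at most 0.0929 in Nras(G12D) and 0.24, 5.8 and 0.312 in the leukemic double mutant. Unlike Ifi44l, Gbp2b was present in all 3 Tet2-/- libraries, including Tet2-/- 2. Alpk1, another gene outside the set and chosen in the same way, lies 5.79 Mb from Tet2. For Alpk1, Tet2-/- had 88.3, 44.5 and 104 CPM and the double mutant had 55.5, 46.1 and 61.6. WT had 16.8, 12.8 and 17.2 CPM of Alpk1, Nras(G12D) had 6.13, 10.6 and 20.9 and the leukemic double mutant had 6.45, 4.94 and 9.63. Whether chromosome 3 position bears on any of these genes was not tested.

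**Figure D4:**
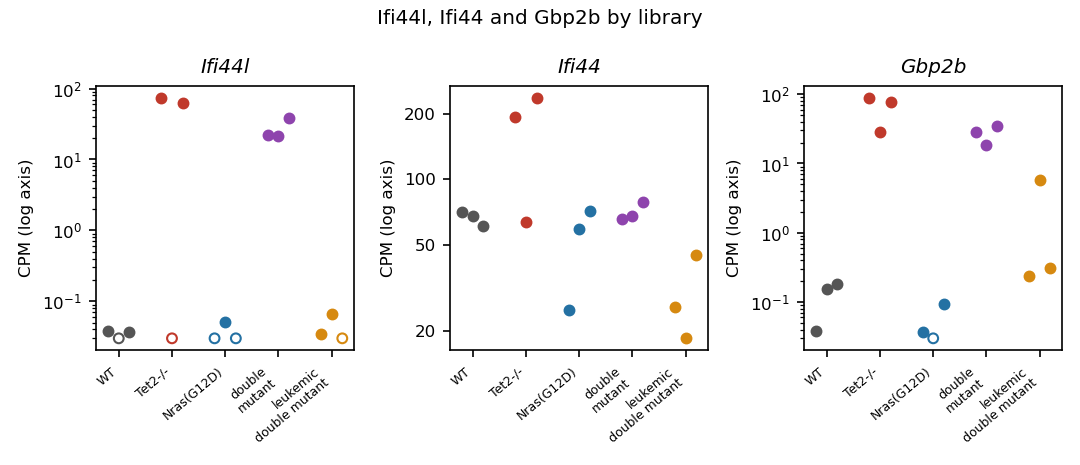
CPM of Ifi44l, Ifi44 and Gbp2b by library on log axes, with open symbols for values at or below 0.03 CPM, drawn at 0.03. Ifi44l is on in Tet2-/- 1 and 3 and the double mutant, and at or near 0 elsewhere.

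Set against WT, Tet2 loss alone gave higher values for most members without a call. In Tet2-/- 32 of 38 members lay above 0 (49.8% of all genes), with a median log2 difference of 0.59 against -0.01 over all genes. None passed (limma, 0.23% of all genes did), and 13 had an unadjusted p below 0.05 (23.7% of all genes), 12 of them higher (8.04%) and 1 lower (15.7%). All Tet2-/- libraries lay above all WT libraries for 17 members (21.9% of all genes) and below for 1, Cmpk2 (12.9%). Among the members without overlap Samd9l had the highest difference, 1.06 ± 0.27 (limma adjusted p = 0.108), followed by Zbp1 at 0.88 ± 0.64 and Parp14 at 0.84 ± 0.33. Ly6e differed by 0.61 ± 0.20 and Sp100 by 0.73 ± 0.23 (limma, adjusted p = 0.119 and 0.117). The median was 0.26 without Tet2-/- 3, and without Tet2-/- 2 it was 0.78 and 9 members passed (16% of all genes). With sample quality weights 24 passed (49.8% of all genes), and Tet2-/- 2 had a weight of 0.282 against 1.71 and 1.45 for Tet2-/- 1 and 3. The comparisons of Tet2-/- with WT and with the double mutant share the Tet2-/- libraries, so they are not independent.

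By role, the 5 sensors had a median difference of 0.64 from WT in Tet2-/-, the 7 ubiquitin and ADP-ribose transfer genes 0.64, the 4 transducers and feedback genes 0.61, and the 3 Ifit genes 0.57. The 5 synthetase genes were closest to WT at 0.16, from -0.15 for Oas3 to 0.46 for Oasl2. The 7 restriction factors stood at 0.61, from -1.67 to 1.06, and the 7 remaining members at 0.73. Differences between roles were not tested.

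With mutant Nras alone no member passed. In Nras(G12D) 11 members lay above 0 (47.5% of all genes), with a median of -0.19 against -0.02 over all genes. By limma 0% of all genes were called against WT, and no member had an unadjusted p below 0.05 (4.14% of all genes). Voom with sample quality weights also called none. Ifi27l2a, a member of unsettled function, was at 19.6, 9.69 and 20.3 CPM in Nras(G12D) against 8.16, 8.37 and 4.69 in WT (1.19 ± 0.60, limma adjusted p = 0.984). Both Ifi27l2a and Ly6e were above WT in every Nras(G12D) library (5.52% of all genes), and Stat2 and Ifih1 below it (6.53%). The median was 0.03 without Nras(G12D) 1.

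In the double mutant the median member lay below WT and below Nras(G12D), with no call. Against WT 8 members lay above 0 (50.4% of all genes), with a median of -0.25 against 0.00 over all genes, and none passed (limma, 0.682% of all genes did). All double mutant libraries lay below WT for 12 members (20.8% of all genes) and above for 3 (16.6%). Rsad2 was lowest relative to WT (-1.54 ± 0.40, limma adjusted p = 0.0892), and Rsad2, Oas1a and Ifi44l were the 3 members with an unadjusted p below 0.05 (15.2% of all genes). Without double mutant 1, 2 members passed (7.12% of all genes), and voom with sample quality weights called 8 (26.3%). Against Nras(G12D) 10 members lay above 0 (57.9% of all genes), the median was -0.18 against 0.09 over all genes, and none passed (limma, 0.079% of all genes did), with 2 at an unadjusted p below 0.05 (7.41% of all genes), Rsad2 lower and Ifi44l higher, and 0 by voom. The double mutant was below every Nras(G12D) library for Isg15, Oasl1, Bst2 and Ly6e (6.87% of all genes) and above for Stat2 and Ifi44l (6.74%).

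The interaction asks whether the double mutant departs from the sum of the single-mutant differences. Its median over members was -0.69 against 0.09 over all genes, with 5 members above 0 (53.3% of all genes). None passed (limma, 0% of all genes did), and 6 had an unadjusted p below 0.05 (21% of all genes), 5 lower (5.18%) and 1 higher (15.8%). Ly6e had the smallest p, at -0.97 ± 0.28 (limma adjusted p = 0.143). Without Tet2-/- 2, 2 members passed (12.1% of all genes), and voom with sample quality weights called 21 (42.5%). In the limma fit the difference between the double mutant and Tet2-/- was thus not shown to differ from that between Nras(G12D) and WT. An F test over the 5 groups called 14 members, while 44% of all genes were called. The count was 7 without Tet2-/- 1 (27.9% of all genes) or Tet2-/- 3 (28.5%).

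In leukemia few members passed against WT, and most lay below it. Cmpk2 rose and Ddx58 and Trim30a fell (limma; 10.8% of all genes were called higher and 13.9% lower). Of the 38 members 11 lay above 0 (50% of all genes), with a median member of -0.25 against -0.00 over all genes. All leukemic libraries lay below WT for 8 members (23.1% of all genes) and above it for 1 (24%), Ly6e at 0.41 ± 0.20. Beside the called genes these 8 were Mx2 (-1.39 ± 0.64), Oas3 (-1.04 ± 0.48), Ifi44 (-1.26 ± 0.47), Trim25 (-0.57 ± 0.27), Samd9l (-0.41 ± 0.27) and Sp100 (-0.49 ± 0.23), with adjusted p from 0.0655 to 0.28 (limma). Cmpk2 rose by 1.79 ± 0.62 (limma adjusted p = 0.0489, range 1.43 to 2.47), although leukemic 1 at 37.7 CPM lay inside the WT range. This call was lost with no filter, the compared groups alone, scaling by total counts or a term for Ddx3y. It was also lost in 5 of the 6 fits that left out a library, all but that without leukemic 1. Ddx58 fell by 1.43 on the log2 scale (SE 0.34, limma adjusted p = 0.0108, range -1.70 to -1.08) and Trim30a fell by 0.91 (SE 0.28, adjusted p = 0.0294, range -1.17 to -0.54). The call of Trim30a was lost with no filter, with the compared groups alone, and without leukemic 2 or any 1 WT library. For Trim30a, a regulator of inflammatory signalling, WT had 118, 106 and 111 CPM and the leukemic double mutant had 71.3, 35.8 and 81.8. Without leukemic 2 no member passed (10.5% of all genes), without leukemic 1 there were 7 (37.7%), and without any 1 WT library 1 (9.74% to 16.8%), with Ddx58 kept in each of the fits but that without leukemic 2.

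Against the double mutant without leukemia, Oasl1 and Rsad2 rose and Ifi44l fell in the leukemic double mutant (limma; 9.04% of all genes were called higher and 15.2% lower). For Oasl1, an inactive relative of the synthetases that limits Irf7 translation, the double mutant had 12.4, 13.9 and 10.3 CPM and the leukemic double mutant had 21.4, 72.3 and 71.5. Of the other groups WT had 20.5, 23.4 and 19.5 CPM, Tet2-/- had 23.9, 14.2 and 33.9 and Nras(G12D) had 15.4, 22.8 and 25.2. Leukemic 2 and 3 were above all other libraries for Oasl1 (chromosome 5, 114923240 to 114937915, plus strand), and leukemic 1 was within the WT range. Oasl1 rose by 1.99 ± 0.43 (limma, adjusted p = 0.00699, range 1.69 to 2.59), a call lost only when the fit held the compared groups alone. Rsad2 rose by 1.22 ± 0.40 (limma, adjusted p = 0.0397, range 0.78 to 1.74). Its call was lost without double mutant 2 or 3 or leukemic 2 or 3. Scaling to total counts, no filter and the compared groups alone also lost it. In this comparison 17 members lay above 0 (45.1% of all genes). Of all members 3 lay above the double mutant in each leukemic library (19.7% of all genes) and 8 below (23.4%). The count of calls was 12 without leukemic 1 (38% of all genes), 9 of them higher, 5 without leukemic 3 (13%), and 2 without leukemic 2, double mutant 2 or double mutant 3 (8.51%, 12.1% and 11.3%).

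Leukemic 3 differed from the other leukemic libraries. It held Isg15 at 69.2 CPM (6.18 and 25.9 in leukemic 1 and 2), Zbp1 at 76.4 (7.04 and 33), Irf7 at 149 (46.4 and 109) and Ifit1 at 50.6 (8.68 and 7.41). Isg15 and Zbp1, a sensor of left-handed nucleic acid, were higher there than in any other library. Cxcl10 was at 69 CPM in leukemic 3 (1.41 and 1.94 in leukemic 1 and 2) and Cxcl9 at 26.9 (1.65 and 1.35). Handling and immediate early genes summed to 1706 CPM in leukemic 3, against 369 and 485 in leukemic 1 and 2. Their part in its levels was not tested. Of the 18 type I interferon genes of the table, the ligands of the pathway, 11 had a count in leukemic 3. Their summed count was 555 in leukemic 3, or 17.3 CPM, and 0 to 13 in each of the other 14 libraries. The most abundant in leukemic 3 were Ifna2 at 183 counts, Ifna1 at 156, Ifna4 at 132, Ifnb1 at 57 and Ifna5 at 12. None of the 18 exceeded 7 counts in any other library, and 5 had 0 counts in every library. Genes of other interferon types, Ifng, Ifnl2 and Ifnl3, summed to 15 counts in leukemic 3 and at most 1 elsewhere. None of these passed the filter, so none was tested. Interferon-alpha genes are near-identical copies, so the split of counts among them is uncertain. A single library carries this observation, and whether its members and ligands are linked was not tested.

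**Figure D5:**
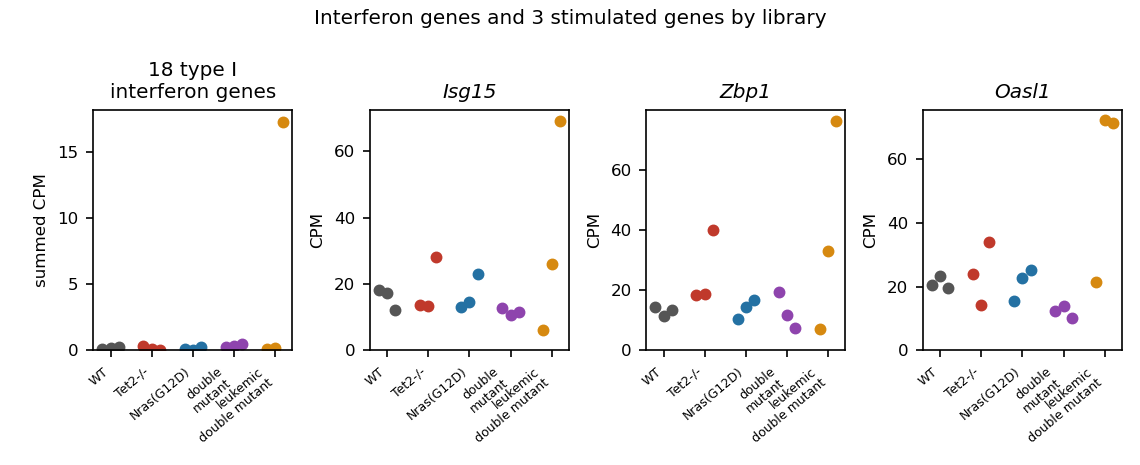
Summed CPM of 18 type I interferon genes and CPM of Isg15, Zbp1 and Oasl1 by library. Leukemic 3 alone has a visible ligand sum, 17.3 CPM, and the highest Isg15 and Zbp1, while Oasl1 is as high in leukemic 2.

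Other genes of the pathway were read from lists, beside 20.1% of all genes called higher and 8.57% lower between the double mutant and Tet2-/-. From Tet2-/- to the double mutant 3 of 10 tested receptor and transducer genes rose, Ifnar2, Ifngr2 and Stat3, and 0 fell. For Ifnar2, the long-tailed chain of the type I receptor, WT had 51.1, 116 and 90.2 CPM, Tet2-/- had 20.9, 63.6 and 26.3, Nras(G12D) had 100, 190 and 52.6, the double mutant had 115, 136 and 135 and the leukemic double mutant had 149, 112 and 124. The double mutant lay above Tet2-/- without overlap (1.97 ± 0.46, limma adjusted p = 0.00863). For Ifnar1, Tet2-/- had 75.9, 161 and 84.5 CPM and the double mutant had 129, 126 and 108 (0.25 ± 0.31). The receptor's kinases differed by 1.07 ± 0.39 for Jak1 (limma adjusted p = 0.052) and 0.51 ± 0.40 for Tyk2 (0.337). Jak1 libraries had 167, 223 and 166 CPM in Tet2-/- and 303 to 477 for the double mutant, without overlap, and Tyk2 50.7, 157 and 57.5 against 128, 125 and 83.7, with overlap. Ifngr2, a chain of the interferon-gamma receptor, rose by 2.36 ± 0.48 (limma adjusted p = 0.0053).

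From Tet2-/- to the double mutant 8 of 17 tested negative regulators rose and 2 fell (20.1% and 8.57% of all genes). Against WT 0 of these 17 passed in the double mutant (limma, 0.682% of all genes did). Nor did any of the 10 receptor and transducer genes or of 20 tested inducers and sensors outside the set. For Socs1, an inhibitor of JAK kinases, Tet2-/- had 0.085, 0.423 and 0.191 CPM and the double mutant had 1.66, 6.93 and 8.29 (4.43 ± 0.83, limma adjusted p = 0.00472). Leukemic libraries had 5.7, 10.6 and 14.1 CPM of Socs1 and WT 0.343 to 1.33, so it stayed a weakly expressed gene. Ptpn1, a phosphatase that acts on JAK kinases, was at 19, 69.1 and 24.5 CPM against 123, 146 and 136 (2.08 ± 0.43, limma adjusted p = 0.0055). Its WT libraries had 69, 131 and 124 CPM and those of Nras(G12D) 111, 164 and 63. Ptpn6, which encodes the phosphatase SHP-1, fell (-0.75 ± 0.20, limma adjusted p = 0.0154). Of 20 tested inducers and sensors outside the set 3 rose and 7 fell, against the same shares. For Tlr7, an endosomal RNA sensor, Tet2-/- had 24.7, 37.1 and 45.3 CPM and the double mutant had 12.8, 8.17 and 3.55 (-2.27 ± 0.63, limma adjusted p = 0.0186). Adar, Mavs, Tbk1 and Tmem173 (which encodes STING) also fell, by 1.17, 0.94, 0.78 and 0.98 on the log2 scale. Irf1 and Irf3, transcription factors that induce interferon genes, differed by 0.05 ± 0.33 and 0.54 ± 0.28. Irf8, a myeloid regulator, rose (2.38 ± 0.57, limma adjusted p = 0.00973). Of 19 tested interferon-gamma and antigen processing genes 4 rose and 2 fell, which is near those shares.

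Marker lists of other cell types also moved with these groups, and their part in the results was not tested. Conventional dendritic cell markers had sums of 198 to 405 CPM in WT, 490 to 1853 for Tet2-/- and 1487 to 2461 for the double mutant. Nras(G12D) 1 to 3 had sums of 2212, 387 and 857 CPM, and the leukemic double mutant 349 to 460. From Tet2-/- to the double mutant 1 of these 10 markers rose (20.1% of all genes). From the double mutant to the leukemic double mutant 9 of 10 fell (15.2% of all genes). Tet2-/- 3, the library with the highest members, also had the highest sums in its group for monocyte (1657 CPM against 912 and 791), neutrophil (5194 against 3291 and 3585) and plasmacytoid dendritic cell markers (920 against 512 and 521). Within the last list Klk1 and Cd209d were at or near 0 in every library, and Ly6c2 made up 476 of the 920 CPM. In the neutrophil list Mpo (3654 CPM) and Elane (1204 CPM) made up most of the 5194 CPM in Tet2-/- 3. S100a8, Ltf, Camp and Ngp were highest in Tet2-/- 1, and S100a9, Mmp8, Retnlg and Cxcr2 in Tet2-/- 3. In the leukemic double mutant LSK and stem cell markers summed to 709 to 3003 CPM against 4014 to 4601 in WT, with 7 of 10 fallen (13.9% of all genes). Erythroid markers summed there to 517 to 5917 CPM against 152 to 219 in WT, with 8 of 10 risen (10.8% of all genes). Against the double mutant 10 of 10 erythroid markers rose (9.04% of all genes). In that comparison 5 of 10 LSK and stem cell markers and 7 of 10 handling and immediate early genes fell (15.2% of all genes). Leukemic 3, with the interferon ligands, had a plasmacytoid dendritic cell sum of 433 CPM, against 477 in leukemic 1 and 274 in leukemic 2. Single markers of that list differed. Siglech, Tcf4 and Runx2 were highest in leukemic 1, with Tcf4 at 215, 74.8 and 120 CPM in leukemic 1 to 3. Ccr9, Spib, Pacsin1, Cox6a2 and Ly6c2 were highest in leukemic 3, with Ccr9 at 1.24, 1.25 and 8.14 CPM. Their link to the ligands was not tested. Of the 8 tested markers in that list 3 lay above WT in the leukemic double mutant, with a median log2 difference of -0.05, and 0 passed the test (limma). For Ly6a, Tet2-/- had 136, 109 and 198 CPM, the double mutant had 94.3, 76.4 and 72.4 and the leukemic double mutant had 114, 64.7 and 189 (double mutant against Tet2-/-, -0.83 ± 0.37, limma adjusted p = 0.101).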

How the data were processed

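The deposited table gives log2 CPM by gene symbol for every library. Its values show that the authors added 0.5 to each count and 1 to a library size scaled by 0.813 to 1.12. Undoing this returned whole numbers for 100% of values (tolerance 1e-06). Tools named by the submitters' processing notes are STAR 2.4.0f1, bcl2fastq, limma 3.28.21 and edgeR 3.14.0, beside the builds NCBIM37 and mm10, neither with a stated role. What counted the reads, on which annotation and with what use of strand is not given in the sources used here.

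Genes at or above 1 CPM in at least 3 libraries were fitted with limma 3.58.1 (R 4.3.3, intensity trend, 5 group means, 15 libraries, 10 residual degrees of freedom) and tested two-sided with Benjamini-Hochberg adjustment over all 13927 genes in each of 7 pairwise comparisons, the interaction and an F test. The code was tested on simulated data. Log2 changes are estimate ± SE on the scale with 0.5 added, which understates changes of low genes. CPM is the whole count over the scaled library size. Every table column was used (0 left out). The column N2-3 was taken as Nras(G12D) library 2 and BMT columns as leukemic libraries by number. No libraries of a group agreed within sampling noise. Members, roles and lists were chosen with earlier results of these data known. By rule, members called in any test are given with all their libraries, other members by differences or ranges, pathway lists by counts with values for some called genes and for fixed ones (Ifnar1, Ifnar2, Jak1, Tyk2, Irf1, Irf3, Ly6a), and the 10 outside genes most like the members by r. A gene that the rule names is not reported here. Ifng, Ifnl2 and Ifnl3, in the list of ligands as first written, are not type I and were summed apart. Which called list genes are printed, Gbp2b, Alpk1 and leukemic 3's genes were chosen after their values were seen. Gene positions are from GENCODE on GRCm38 and promoter windows from RefSeq. Alternatives were no filter, an added count of 0.1, scaling by total counts, quantile normalization, voom with sample quality weights, only the compared groups, a replicate block, a term for Ddx3y, and leaving out each library. Using only the 10 libraries without Ddx3y was chosen after seeing the data.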

Additional observations from a re-analysis of the deposited data

How the results depend on the processing

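None of the log2 changes of called members reversed in any alternative. The median over all members did for the leukemic double mutant against WT, from -0.25 to 0.15 with voom weights, where 10 were called higher and 5 lower. In that fit leukemic 3 had a weight of 4.11, against 0.225 and 0.433 for leukemic 1 and 2. Between the double mutants the median ran from -0.37 to 0.24 when 1 library was left out. The share of all genes called in the same fit is given in parentheses. With voom and sample quality weights the counts were 24 in Tet2-/- (49.8%), 8 in the double mutant (26.3%) and 15 in the leukemic double mutant (60.5%) against WT, 28 in the double mutant against Tet2-/- (63.2%), 18 between the double mutants (56.7%), 21 for the interaction (42.5%) and 32 for the F test (88.8%). The reported counts were 0, 0, 3, 17, 3, 0 and 14. With no filter on low genes they were 1 for the leukemic double mutant against WT (5.83%), 4 for the double mutant against Tet2-/- (4.97%) and 7 for the F test (9.98%). Using only libraries without Ddx3y left 1 Tet2-/- library, Tet2-/- 3, assumed to vary like the other groups. Tet2-/- 3 held the highest value of all 15 libraries for 25 members. The fit also dropped double mutant 1, the highest of its group for 22. The median moved from 0.59 to 0.95 in Tet2-/- against WT and from -0.69 to -1.14 for the interaction. Resting on Tet2-/- 3, these shifts cannot show an effect of sex. Between groups with more libraries left, counts against WT were 2 in the double mutant (12.8%) and 8 in the leukemic double mutant (46.6%). They were 1 in the double mutant against Nras(G12D) (3.34%) and 10 between the double mutants (43.3%). The F test, which includes Tet2-/- 3, called 23 (63.2%). A fit of the compared groups alone gave 3 in the double mutant against WT (4.12%), 1 against Nras(G12D) (0.0359%) and 1 between the double mutants (5.32%). Quantile normalization gave 2 in the double mutant (1.53%) and 8 in the leukemic double mutant (22.9%) against WT and 9 between the double mutants (17.9%). Scaling by total counts gave 8 in the leukemic double mutant against WT (27%) and 7 between the double mutants (26.6%), and moved the median of all genes to -0.26 and -0.34 there. A term for Ddx3y gave 1 in the double mutant against WT (3.79%). The cause was not tested. Of the 17 members called in the double mutant against Tet2-/-, all 17 were still called with the replicate block, an added count of 0.1 or voom weights, 16 with the compared groups or total counts, 15 with a term for Ddx3y, 14 after quantile normalization and 4 with no filter.

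Leaving out 1 library gave 0 to 9 calls in Tet2-/- against WT, 0 to 0 in Nras(G12D), 0 to 2 in the double mutant and 0 to 7 in the leukemic double mutant against WT. It gave 1 to 21 in the double mutant against Tet2-/-, 0 to 0 against Nras(G12D), 2 to 12 between the double mutants, 0 to 2 for the interaction and 7 to 20 for the F test. Shared replicate numbers were not treated as pairs. Same-numbered libraries had correlations of -0.346 to 0.294 (median 0.0718), 12 of 30 above 0.1, and 7 of 15 libraries correlated best with their own number. Differently numbered libraries had correlations of -0.411 to 0.468 (median -0.0353), 11 of 60 above 0.1. Whether libraries with the same number share a source was not tested. With the replicate block as a term the counts were 2 in Tet2-/- against WT (5.12%, against 0.23% without the block), 5 in the leukemic double mutant against WT (26.4%) and 6 between the double mutants (25.4%), and within 1.5 times of those reported elsewhere.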

Other observations

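The likeness of other genes to the members was read as Pearson's r between a gene's log2 value and the mean of the members over the 15 libraries, as a description without a test, since all genes share these libraries and their depth. Of the tested genes outside the set, Gvin1, an interferon-inducible giant GTPase gene, was most alike (r = 0.921), followed by Irgm2, an immunity-related GTPase gene (0.916), Gm4070 (0.888), Trmt10a (0.887), Zfp97 (0.879), Emsy (0.877), Tmem229b (0.876), Trappc13 (0.875), Tbc1d31 (0.874) and Cept1 (0.871). The share of genes outside the set with r above 0.8 was 0.994%. Among the members, each against the mean of the others, the median r was 0.667. Oasl2 (0.91), Parp14 (0.894) and Herc6 (0.889) were nearest to the common pattern, 12 members were above 0.8 and 6 below 0.3. Cmpk2 (-0.544), Trim25 (-0.223) and Stat2 (-0.123) were the 3 members below 0.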
